A study of Mus musculus with 24 samples.

Results

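Serum exosomes, the small vesicles that cells release into the blood, were profiled for small RNA in mice given 500 mg/kg acetaminophen and in untreated mice. The comparison set the sum of 2 deposited columns of counts from acetaminophen-treated mice, titled apap and apap_ther, against 1 column from untreated control mice. These columns stand for 4 and 2 samples, 6 of the 24 in the series, since both an Ion Torrent PGM and a Proton library are listed for every condition and the deposited columns combine them. The remaining samples were hepatocyte exosomes, hepatocytes and liver. Mice of one acetaminophen column also received 100 µg/kg granulocyte colony-stimulating factor (G-CSF), a cytokine that mobilises granulocytes, but the labels disagree on which: the titles point to apap_ther, and the treatment field to apap. The columns were therefore summed, and values are also given for each by its title. Mouse strain, age, sampling time and the number of mice were not given in the sources used here. With 1 column a condition there was no replicate, so no p-value is given and every interval covers counting error alone, not variation between mice.

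Acetaminophen overdose kills hepatocytes around the central veins of the liver, and miRNAs set free from injured cells can be found in blood. A miRNA is cut from a hairpin precursor to a mature strand that guides Argonaute proteins to mRNAs, chiefly through its seed, bases 2 to 8. In blood, part of the miRNA travels in vesicles and part bound to protein, and red blood cells, platelets and liver all contribute. The miRNA catalogue holds well-studied families found in many vertebrates and also many mouse entries known mostly from sequencing, some of which lie in repeats. Entries were split by name into established miRNAs (let-7, numbers under 600 and a few later ones), repeat-like entries (such as miR-466, miR-669, miR-706, miR-3470, miR-3471, miR-3472 and miR-5620 with their relatives) and all others.

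The mature table held 692 counts in apap and 436 in apap_ther, 1128 together, against 6515 in control. The hairpin table held 4026 counts in apap and 460 in apap_ther, 4486 together, against 181243 in control. Hairpin counts were 5.82 times the mature counts in apap, 1.06 times in apap_ther and 27.8 times in control. Counts were used as shares of the column total, and an entry was measured when it had at least 10 counts in the acetaminophen sum or in control. It was called different when its share differed at least 2-fold and the exact conditional 95% interval of the ratio excluded equality. Where a count rounds to 0, a floor of 3 counts stands in for it and the fold is a bound at that floor. For such entries the limit of the exact interval lies nearer to equality, such as 88.0-fold for miR-669c-3p, where the floor gives 111-fold.

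The sequences below show the kinds of mature miRNA that filled each side, from RefSeq on GRCm38.p6, written 5′ to 3′ with the seed in capitals. Of the 50 measured mature entries, 39 had a sequence there. The set that follows was higher in acetaminophen serum exosomes and shows the dinucleotide runs, the repeat-like entries and 3 entries that differed between the 2 acetaminophen columns.
miR-466i-3p: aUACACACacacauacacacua
miR-574-5p: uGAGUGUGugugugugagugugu
miR-1187: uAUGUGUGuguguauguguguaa
miR-706: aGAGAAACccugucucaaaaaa
miR-3470b: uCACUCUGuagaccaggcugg
miR-3472: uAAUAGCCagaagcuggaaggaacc
miR-3473b: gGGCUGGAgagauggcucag
miR-3473e: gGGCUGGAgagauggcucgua
miR-877-3p: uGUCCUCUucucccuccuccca
miR-7058-3p: cUCGUUCCuuccuuucuuccag
miR-2137: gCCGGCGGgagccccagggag

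The next set led the control column, chosen because it carried the control counts and includes families with a shared seed.
miR-30c-5p: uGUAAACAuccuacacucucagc
miR-451a: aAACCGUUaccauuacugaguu
miR-155-5p: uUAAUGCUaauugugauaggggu
miR-380-5p: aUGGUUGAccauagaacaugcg
miR-16-5p: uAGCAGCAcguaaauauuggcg
miR-195a-5p: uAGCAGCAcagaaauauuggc
miR-15a-5p: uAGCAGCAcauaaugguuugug
miR-15b-5p: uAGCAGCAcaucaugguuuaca
let-7a-5p: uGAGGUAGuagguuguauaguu
let-7c-5p: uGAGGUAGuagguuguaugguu

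Among the entries higher after acetaminophen, miR-877-3p lies in an intron of Abcf1 (chr17:35960731-35960752, minus strand), miR-574-5p in an intron of Fam114a1 (chr5:64970328-64970350, plus strand) and miR-706 in an intron of Wnk1 (chr6:120034290-120034311, minus strand). MiR-2137 lies in an intron of Zfp185 (chrX:72992113-72992133, plus strand), miR-7058-3p overlaps an exon of Lat (chr7:126367971-126367992, minus strand), and miR-3470b lies at chr16:44013885-44013905 on the plus strand outside other annotated genes of that strand. Among the control leaders, miR-30c-5p has a locus in an intron of Nfyc (chr4:120769584-120769606, minus strand) and another in an exon of the long non-coding RNA Gm27028 (chr1:23291714-23291736, plus strand). MiR-451a lies at chr11:78073186-78073207 on the plus strand with no other annotated gene on that strand.

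The kind of miRNA that made up the counts was almost exchanged between the sides. Established miRNAs held 10.8% of the mature counts in apap and 11.7% in apap_ther, 11.1% of the sum (95% Wilson interval 9.46% to 13.1%), against 99.6% in control. Their share was 8.95-fold lower in the acetaminophen sum (exact interval 7.47 to 10.7). Repeat-like entries held 43.2% of the counts in apap and 33.1% in apap_ther, against 0.0230% in control, which rests on 1.5 counts. The ratio was 1708 for the sum, with an exact interval of 353 to 10621. All other entries held 46.0% in apap and 55.2% in apap_ther, against 0.388% in control, and were 127.8-fold higher in the sum (86.6 to 201). Both acetaminophen columns lay on the same side of control for each class.

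The hairpin table gave the same order of classes. Established hairpins held 13.4% of the acetaminophen sum, against 93.6% in control (6.998-fold lower, 6.46 to 7.60). Repeat-like hairpins held 25.2% of the acetaminophen sum, against 0.0371% in control (681-fold higher, 534 to 888). Other hairpins held 61.4% of the acetaminophen sum, against 6.32% in control (9.72-fold higher, 9.32 to 10.1). Of that control share mir-3107, which overlaps the established mir-486, held 3.83%. Without mir-3107, a choice made after seeing the data, the other hairpins held 61.4% of the acetaminophen sum, against 2.48% in control (24.7-fold higher, 23.6 to 25.9). Both tables come from the same libraries and are not independent of each other.

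**Figure D1:**
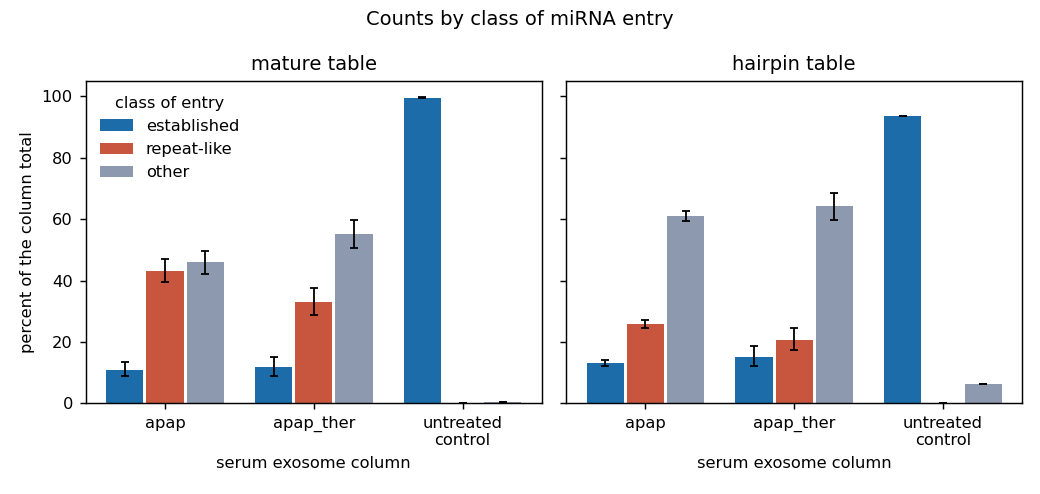
Percent of the column total in established, repeat-like and other entries for the serum exosome columns apap, apap_ther and untreated control, in the mature (left) and hairpin (right) table; bars are shares and error bars 95% Wilson intervals. Established miRNAs hold 10.8% and 11.7% of mature counts in apap and apap_ther, against 99.6% in control.

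The counts were also spread over far more entries after acetaminophen. In the acetaminophen sum 406 mature entries were above 0, 290 of them in apap and 212 in apap_ther, against 160 in control. After rounding to whole counts 379 entries remained in the acetaminophen sum and 143 in control, of which 71.2 would be expected at the depth of the sum. The 10 highest entries held 33.8% of the acetaminophen sum, against 87.1% of control. The top entry was miR-669c-3p with 57.7 counts, 5.12% of the acetaminophen sum, and in control miR-30c-5p with 3680 counts, 56.5%. The effective number of entries, the exponential of the Shannon entropy, was 150 in the acetaminophen sum and 7.66 in control. It was 115 in apap and 114 in apap_ther alone. Untreated hepatocyte exosomes, also shallow, reached 129, with 204 entries above 0 and 27.8% of counts in the 10 highest. Of the entries above 0, 96 were shared by apap and apap_ther, 33.1% of those in apap and 45.3% of those in apap_ther, and they held 68.8% of the apap counts and 68.6% of the apap_ther counts.

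Of 50 measured mature entries, 21 (42%) were called higher in the acetaminophen sum and 16 (32%) lower. By class, all 10 repeat-like and all 10 other measured entries were higher, while of 30 established entries 1 was higher, 16 were lower and 13 were not called. These counts partly follow from the depth. Of the 50, 21 were measured through the acetaminophen sum, where 10 counts against 0 already give at least 19.3-fold. The other 29 were measured through control, and there an entry at 0 in the sum needed 34.7 control counts to be called lower. Of the control-measured entries 16 had that many and all 16 were called, whereas the 13 below it could not have been called at 0. No entry reached 10 counts on both sides. With apap alone 15 were higher and 8 lower, and with apap_ther alone 11 and 8.

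The miR-30 family, whose members act in many tissues including epithelium and endothelium, had led the control profile. MiR-30c-5p had 0 counts in apap and 0 in apap_ther, against 3680 in control, and was at least 212-fold lower. At the control share the 1128 acetaminophen counts would have held 637 of it. MiR-30b-5p had 0 counts in both acetaminophen columns, against 863 in control, and was at least 49.8-fold lower. All 5 members of the family were at 0 in the acetaminophen sum, and together they held 70.0% of the control counts. MiR-30a-5p, miR-30d-5p and miR-30e-5p had only 6.33, 6.33 and 5.33 control counts, too few to be measured. Of their hairpins, mir-30a and mir-30d were not called and mir-30e was higher.

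Red-cell miRNAs were the second group. MiR-486a-5p and miR-486b-5p, found in erythroid cells and muscle, had 0 counts in both acetaminophen columns, against 229 each in control, at least 13.2-fold lower. Their equal counts mean that reads could not be assigned to one of them. MiR-451a, an erythroid miRNA matured by Ago2 without Dicer, had 0 counts in both acetaminophen columns, against 162 in control, at least 9.35-fold lower. MiR-16-5p, which restrains cell-cycle genes and is abundant in red cells, had 0.5 counts in apap and 0 in apap_ther, against 195.2 in control, at least 11.3-fold lower. The erythroid list had 8 members, of which 4 were measured and all 4 were lower, as were all 16 entries with enough control counts for a call. It held 0.0443% of the acetaminophen sum (0.0723% of apap, 0% of apap_ther), against 12.8% of control. Its defining members miR-451a, miR-144-3p and miR-486a-5p were at 0 in both acetaminophen columns, against 162, 7 and 229 counts in control. How far red-cell RNA in the control serum contributed to the differences was not tested.

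The miR-15/16 family shares the seed AGCAGCA in the sequences shown above. Besides miR-16-5p, miR-195a-5p had 0.5 counts in apap and 0 in apap_ther, against 125 in control, at least 7.19-fold lower. MiR-15a-5p and miR-15b-5p both had 0 counts in the acetaminophen columns, against 40 each in control, at least 2.31-fold lower at the floor. Their exact limit was 1.79-fold. All 4 measured of 7 members were lower, again as were all 16 entries with enough control counts. Reads common to such close relatives were divided by the authors, so the members are not independent of each other.

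In the let-7 family, which keeps cells differentiated and shares the seed GAGGUAG, 8 of 9 members were measured and 2 were lower. Let-7a-5p had 0 counts, as had let-7c-5p, in both acetaminophen columns, against 45.7 each in control, at least 2.64-fold lower. The other 6 measured members had 14.5 to 24.7 control counts, below the number a call needs. Of their hairpins, let-7b, let-7d, let-7g and let-7i were called lower, and let-7e, let-7f-1 and let-7f-2 were not called. The intervals of let-7g and let-7i reached up to a ratio of 0.967. A single count of let-7i-5p in apap_ther was the only one of the 9 members in the acetaminophen columns.

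Another 5 established miRNAs were lower. MiR-380-5p, from the imprinted Dlk1-Dio3 cluster, had 0 counts in both acetaminophen columns, against 90 in control, at least 5.19-fold lower. MiR-155-5p, induced in activated lymphocytes and macrophages, had 1 count in apap and 0 in apap_ther, against 53 in control, a ratio of 0.109 (exact interval 0.00271 to 0.634). The widely expressed miR-423-5p, miR-320-3p and miR-191-5p were at 0 in both acetaminophen columns, against 49, 44 and 42 counts in control. At the floor they were at least 2.83-fold, 2.54-fold and 2.42-fold lower, with exact limits of 2.21-fold, 1.98-fold and 1.89-fold. For all 16 lower entries both acetaminophen columns lay below control, and 13 were at exactly 0 in both.

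MiR-122-5p, the main miRNA of hepatocytes and a blood marker of acetaminophen liver injury, was not called. It had 0 counts in apap and 0 in apap_ther, against 31 in control, where 34.7 would have been needed. The exact interval of its ratio ran up to 0.730 and the 3-count floor gave a ratio of at most 0.559. In shares of the column total, a level at or above control is thus outside the counting error. A difference of 2-fold could not be shown there. Under the other scalings given at the end, miR-122-5p was called lower. Of the 11 hepatocyte list members, only 3 had any count in the acetaminophen sum, 2.5 counts in all or 0.222%, against 45.7 counts or 0.701% in control. MiR-122-5p made up 31 of these control counts, and no other member was measured. MiR-194-5p and miR-22-3p each held 0.0887% of the sum, against 0.0153% and 0.0614% of control. MiR-21a-5p held 0.0443% of the sum, against 0.107% of control. Other established entries that were not called had at most 1 count in the sum: miR-140-3p had 1 count in apap and 0 in apap_ther, against 25 in control, and miR-484 had 0 in both, against 27 in control. The hairpins mir-140 and mir-484 were called lower, with 0 and 3 counts in the sum, against 1334.5 and 1415 in control.

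**Figure D2:**
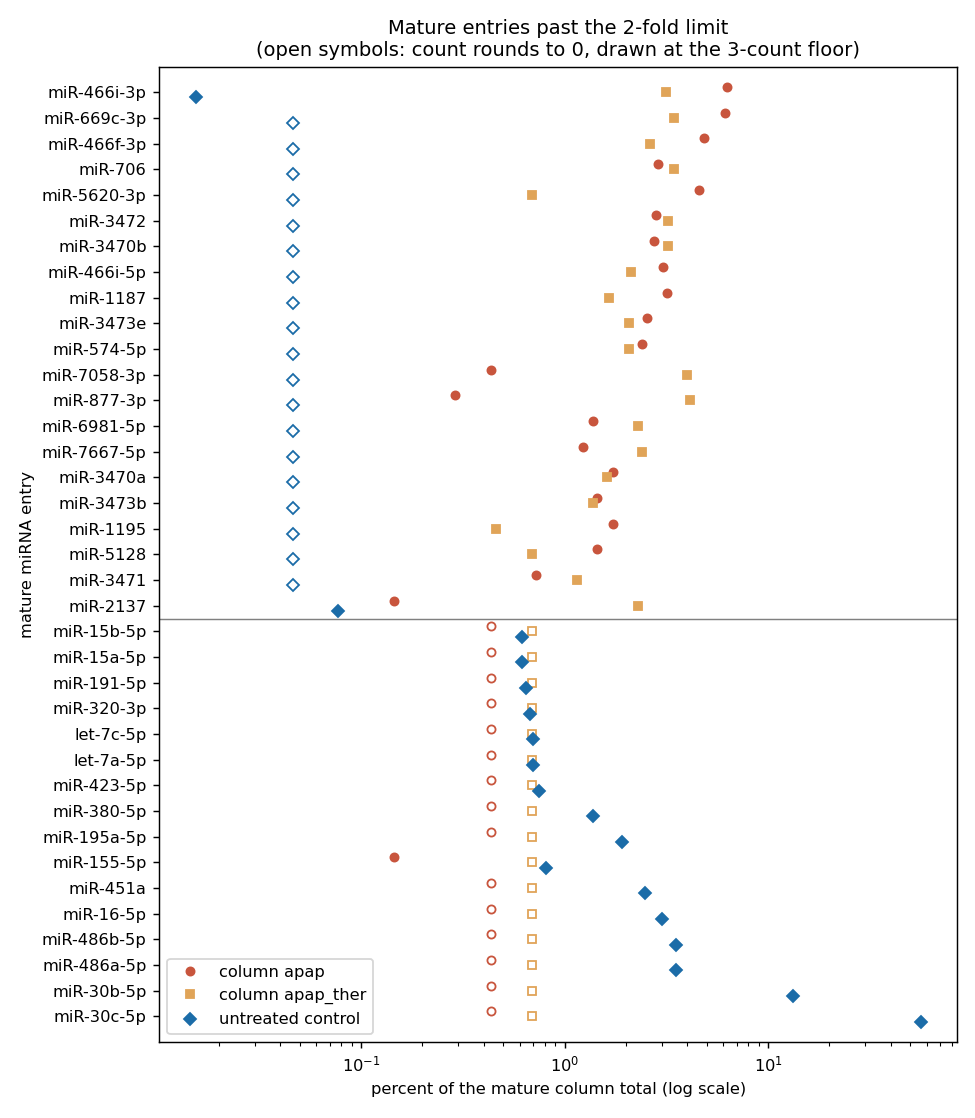
Percent of the mature column total (log scale) for the 37 mature entries called between the acetaminophen sum and control, with points for apap, apap_ther and untreated control; open symbols are counts that round to 0, drawn at 3 counts. The 21 entries above the line have both acetaminophen points right of control, and the 16 below it are at 0 in nearly all acetaminophen points.

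Repeat-like entries led the higher group. Of these, 4 belonged to the group of miR-297, miR-466, miR-467 and miR-669, many of whose loci lie in an intron of Sfmbt2 in the mouse. MiR-466i-3p lies elsewhere, at chr13:17747552-17747573 on the plus strand outside other annotated genes of that strand. MiR-669c-3p had 42.7 counts in apap and 15.1 in apap_ther, against 0 in control, at least 111-fold higher. MiR-466i-3p had 43.4 counts in apap and 13.7 in apap_ther, against 1 in control, a ratio of 329 (exact interval 56.8 to 13229). MiR-466f-3p had 33.4 counts in apap and 11.4 in apap_ther, against 0 in control, at least 86.2-fold higher. MiR-466i-5p had 21.1 counts in apap and 9.22 in apap_ther, against 0.25 in control, at least 58.3-fold higher. The group has 80 mature entries, of which 66 were above 0 in the acetaminophen sum and 3 in control. It held 24.7% of the acetaminophen sum (27.8% of apap, 19.8% of apap_ther), against 0.0230% of control.

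Another 6 repeat-like entries were higher. MiR-706 had 20 counts in apap and 15 in apap_ther, against 0 in control, at least 67.4-fold higher. MiR-3472 had 19.5 counts in apap and 14 in apap_ther, against 0 in control, at least 64.5-fold higher, and miR-3470b had 19 and 14, against 0, at least 63.5-fold higher. MiR-706 and miR-3470b resemble the mouse B1 short interspersed element. MiR-5620-3p had 31.5 counts in apap and 3 in apap_ther, against 0 in control, at least 66.4-fold higher. MiR-3470a had 12 counts in apap and 7 in apap_ther, against 0 in control, and miR-3471 had 5 in each, against 0, at least 36.6-fold and 19.3-fold higher. The list of miR-706, miR-3470, miR-3472 and miR-5620 entries had 6 members, of which 5 were measured and all 5 were higher, as were all 21 entries measured through the acetaminophen sum. They held 13.7% of the acetaminophen sum (14.7% of apap, 12.2% of apap_ther), against 0% of control.

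All 10 measured entries of the remaining class were higher. MiR-1187 had 22.2 counts in apap and 7.22 in apap_ther, against 0.25 in control, at least 56.5-fold higher. MiR-3473e and miR-3473b, which share the seed GGCUGGA and resemble the B2 short interspersed element, had 17.5 and 10 counts in apap and 9 and 6 in apap_ther, against 0.5 each in control, at least 51.0-fold and 30.8-fold higher. MiR-877-3p, excised as a spliced intron of Abcf1, had 2 counts in apap and 18 in apap_ther, against 0 in control, at least 38.5-fold higher. MiR-7058-3p had 3 counts in apap and 17.5 in apap_ther, against 0 in control, at least 39.5-fold higher. MiR-6981-5p, miR-7667-5p, miR-1195 and miR-5128 had 13 to 19.5 counts in the acetaminophen sum, against 0 in control, and were at least 25.03-fold to 37.5-fold higher. MiR-2137 differed less, with 1 count in apap and 10 in apap_ther, against 5 in control, 12.7-fold higher in the sum (4.07 to 46.7). In the mature table this rests on apap_ther, where it was 29.9-fold higher (9.31 to 111), while in apap the ratio was 1.88 (0.0398 to 16.8) and was not called. Its hairpin mir-2137 was higher in both columns, 4.86-fold in apap (3.24 to 7.06) and 20.6-fold in apap_ther (11.4 to 34.5).

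MiR-574-5p was the one established miRNA that was higher, with 16.6 counts in apap and 9.02 in apap_ther, against 0.25 in control, at least 49.3-fold. Its sequence is a run of GU repeats. It made up 25.6 of the 125.6 established counts in the acetaminophen sum, and without it the established share was 8.87%. The other established entries above 0 in the sum had at most 5 counts, and 61 of the 84 were at 0 in control.

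The runs ACACACAC or GUGUGUGU were found in 3 higher entries with a sequence, miR-466i-3p, miR-574-5p and miR-1187, and in 11 of 1679 RefSeq mature sequences (0.655%). The higher entries varied widely in how many annotated genes shared a 20-base stretch with them. The number was 1183 for miR-3470b, 742 for miR-3473b, 656 for miR-706, 118 for miR-3471, 90 for miR-1187, 64 for miR-574-5p and 40 for miR-466i-3p. It was 15 for miR-7667-5p, 10 for miR-1195, 8 for miR-3472, 1 each for miR-3473e, miR-5128 and miR-7058-3p, and 0 for miR-2137 and miR-877-3p, against at most 3 genes for any established control-measured entry with a sequence. Shares over the called sets are not given, because 15 of the 21 higher and 12 of the 16 lower entries had a sequence, under the 80% needed. Which locus the reads came from cannot be read from the tables. Counts of the repeat-like class were mostly fractions: 19.4% of its nonzero values in the acetaminophen sum were whole within 0.001, against 88.1% for established and 93.6% for other entries.

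The 2 acetaminophen columns were also set against each other, a comparison added after their values had been seen. Of 20 mature entries with at least 10 counts in either, 3 (15%) were higher in apap_ther and 1 (5%) was lower. MiR-877-3p was 14.3-fold higher in apap_ther (3.42 to 127), miR-7058-3p 9.26-fold (2.78 to 50.5) and miR-2137 15.9-fold (2.26 to 689). MiR-5620-3p was 6.62-fold lower in apap_ther (2.10 to 34.3). Since the labels conflict, the differences cannot be given a direction for G-CSF.

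In the hairpin table, 78 of 246 measured entries (31.7%) were called higher and 37 (15%) lower in the acetaminophen sum. Of the 78 higher hairpins, 65 were above control in both acetaminophen columns, and all 37 lower ones were below it in both. With apap alone 74 were higher and 33 lower, and with apap_ther alone 13 and 10. The largest acetaminophen hairpin, mir-5620, had 204.5 counts in apap and 1 in apap_ther, against 1 in control. Mir-3471-2 had 170 counts in apap and 12.4 in apap_ther, against 0.5 in control, at least 2454-fold higher. Mir-3472 had 108 counts in apap and 12.1 in apap_ther, against 0 in control, at least 1623-fold higher. Mir-3470b had 101.4 counts in apap and 11.7 in apap_ther, against 1.55 in control. All 19 measured repeat-like hairpins were higher, as were 48 of 69 other and 11 of 158 established hairpins.

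Several of the leading hairpins had no measured mature entry. Mir-8117 had 136 counts in apap and 2.92 in apap_ther, against 10 in control, 561-fold higher (296 to 1197). Mir-3473f had 115 counts in apap and 20.9 in apap_ther, against 5.3 in control, 1036-fold higher (460 to 3438). Mir-1895 had 78.7 counts in apap and 14.3 in apap_ther, against 110 in control, 34.1-fold higher (25.6 to 45.4), so that it was detected well on both sides. Mir-6369 had 71.5 counts in apap and 10.5 in apap_ther, against 0 in control, at least 1104-fold higher.

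Some established hairpins went against the class. The 11 that were higher were mir-30e, mir-328, mir-615, let-7k, mir-574, mir-181b-1, mir-181b-2, mir-101c, mir-181d, mir-1a-1 and mir-671, named after their values were seen. Mir-181b-1, mir-181b-2 and mir-181d had 18.3, 17.3 and 18.3 counts in apap and 1 each in apap_ther. With values so close and fractional, these hairpins may not be independent of each other. Mir-101c had 40 counts in apap and 1 in apap_ther, against 55.7 in control, 29.8-fold higher (19.3 to 45.0). Mir-30e, of the family that led control, had 12.6 counts in apap and 0 in apap_ther, against 98.7 in control, 5.16-fold higher (2.73 to 9.50). Mir-1a-1, the precursor of a striated muscle miRNA, had 19 counts in apap and 0 in apap_ther, against 11.1 in control, 68.9-fold higher (31.6 to 162). In the mature table its product miR-1a-3p had 0 counts in both acetaminophen columns, against 2 in control.

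The lower hairpins were those of the control leaders. Mir-30c-2 had 0.917 counts in apap and 0 in apap_ther, against 46704 in control, and mir-30c-1 had 3.67 and 0, against 46704. Mir-30b had 1 count in apap and 0 in apap_ther, against 16749 in control. Mir-451a and mir-380 had 1 count each in apap and 0 in apap_ther, against 4603 and 4898 in control. Mir-486 had 4 counts in apap and 10 in apap_ther, against 6957 in control, 12.3-fold lower in the sum, but the columns differed. It held 0.0994% of apap, against 3.84% of control (38.6-fold lower, 15.1 to 141.8). It held 2.17% of apap_ther, against 3.84% of control, a ratio of 0.566 (0.271 to 1.04) that was not called. Mir-3107, which overlaps mir-486, had 0 counts in both acetaminophen columns, against 6950 in control, at least 57.3-fold lower. Mir-144, co-transcribed with mir-451a in erythroid cells, had 0 counts in both, against 551 in control, at least 4.54-fold lower. Mir-142, a blood-cell miRNA, had 2 counts in apap and 0 in apap_ther, against 411 in control, a ratio of 0.197 (0.0237 to 0.715). Mir-122 had 2.75 counts in apap and 0.5 in apap_ther, against 336 in control, a ratio of 0.390 (0.0740 to 1.06) that was not called. Under the other scalings given at the end, mir-122 was called lower.

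Every called mature entry with a hairpin of the same name moved the same way there, 21 of 21 higher and 14 of 14 lower. All passed the 2-fold and interval limits. The 10-count minimum was not applied here: mir-7667, mir-7058 and mir-669c fell below it on both sides. MiR-466i-3p and miR-466i-5p share the hairpin mir-466i. Both tables read the same libraries, so the agreement is not independent. Among all hairpins with at least 10 counts in the acetaminophen sum, 67 of 69 were higher. Of the 41 hairpins with enough control counts for a call at 0, 35 were lower. For miR-486a-5p and miR-486b-5p no hairpin row of the same name was matched. Over all entries, hairpin counts per mature count were 3.98 in the acetaminophen sum and 27.8 in control. In hepatocyte exosomes they were 2.72 untreated, 1.84 after acetaminophen and 3.68 after acetaminophen and G-CSF, and in hepatocytes and liver 5.65 to 33.7. For the 21 higher entries the acetaminophen sum held 0.131 to 25.3, with a median of 1.10, and 10 of the 21 had fewer hairpin than mature counts. For the 14 lower entries control held 17.1 to 54.4, with a median of 31.3. MiR-669c-3p had 57.7 mature against 7.57 hairpin counts in the acetaminophen sum, and miR-574-5p 25.6 against 7.88. The opposite held for miR-3471, with 10 mature and 253 hairpin counts.

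**Figure D3:**
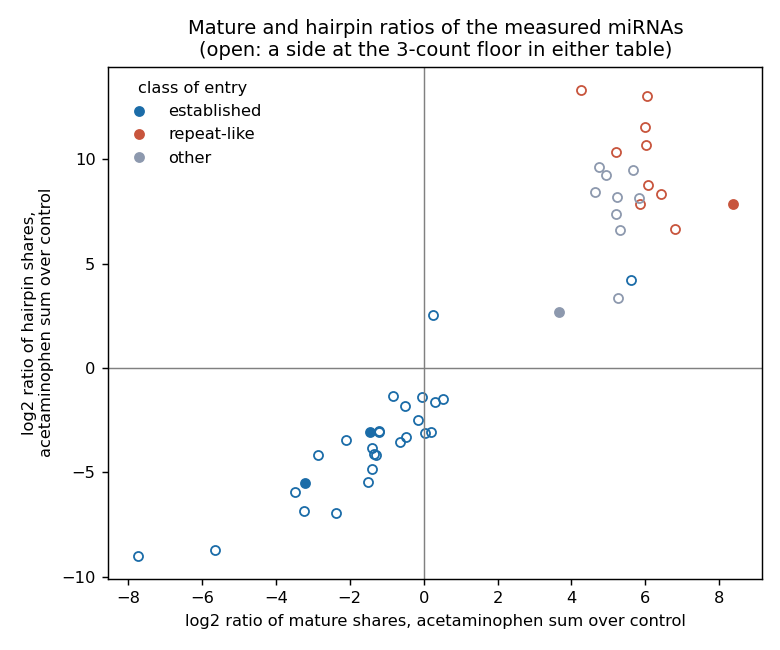
Log2 ratio of hairpin shares against log2 ratio of mature shares, both acetaminophen sum over control, for the measured mature entries with a hairpin; open points have a side at the 3-count floor in either table. All 21 entries called higher lie in the upper right and all 14 called lower in the lower left.

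The other marker lists added little, because few members were measured. Of 7 myeloid and platelet miRNAs 1 was measured and was lower, miR-191-5p, and the list held 0.0887% of the acetaminophen sum, against 1.04% of control. Of 4 lymphoid miRNAs 1 was measured and was lower, miR-155-5p, with the list at 0.0887% of the acetaminophen sum, against 0.875% of control. No endothelial, striated muscle or neural miRNA was measured in the mature table. No median over a list is given, since its measured members passed the count minimum through one side only and most of their ratios are bounds. A vesicle cannot be checked in these tables, since the proteins that define exosomes have no miRNA entry. Neither the number of vesicles nor the RNA in each can be read from the counts.

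The profile of acetaminophen serum exosomes was set beside the other materials, because hepatocyte exosomes were also shallow. Established miRNAs held 9.10% of the mature counts in acetaminophen hepatocyte exosomes, 11.3% with acetaminophen and G-CSF, and 17.0% in untreated hepatocyte exosomes. Those columns held 91, 47 and 335 counts. In hepatocytes and liver the share was 94.0% to 98.7% in all 6 columns. The 5 columns with 47 to 692 mature counts thus lay between 9.10% and 17.0%, treated or not, and the 7 with 4450 to 49330 counts between 94.0% and 99.6%. The part that depth or input had in the serum difference was not tested, and in serum, depth and treatment cannot be told apart.

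The same entries recurred in the shallow columns. The 21 entries called higher in serum held 52.0% of the apap and 48.1% of the apap_ther counts, against 0.119% of the serum control. In hepatocyte exosomes they held 51.5% after acetaminophen, 47.5% after acetaminophen and G-CSF, and 33.1% in the untreated control, with 14, 15 and 20 of the 21 above 0. MiR-2137 alone held 27.5% after acetaminophen, 12.8% after acetaminophen and G-CSF, and 0.896% in the untreated control, which leaves 24.01%, 34.8% and 32.2% for the others. In hepatocytes they held 4.62% after acetaminophen, 4.70% with G-CSF and 0.146% in control, and in liver 0.516%, 0.329% and 0.207%. The hepatocyte values after acetaminophen rested largely on miR-2137, with 237 counts after acetaminophen, 202 with G-CSF and 27 in control. MiR-877-3p, in contrast, had 0 counts in all 3 hepatocyte columns and 1 count at most in any hepatocyte exosome column.

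The 16 entries called lower in serum held 0.289% of the apap and 0% of the apap_ther counts, against 91.0% of the serum control. They held 1.10% of the counts in acetaminophen hepatocyte exosomes and 0% in both other hepatocyte exosome columns. In hepatocytes they held 29.4% after acetaminophen, 45.9% with G-CSF and 9.52% in control, and in liver 16.1%, 20.6% and 18.4%. MiR-30c-5p had 0 counts in all 3 hepatocyte exosome columns.

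**Figure D4:**
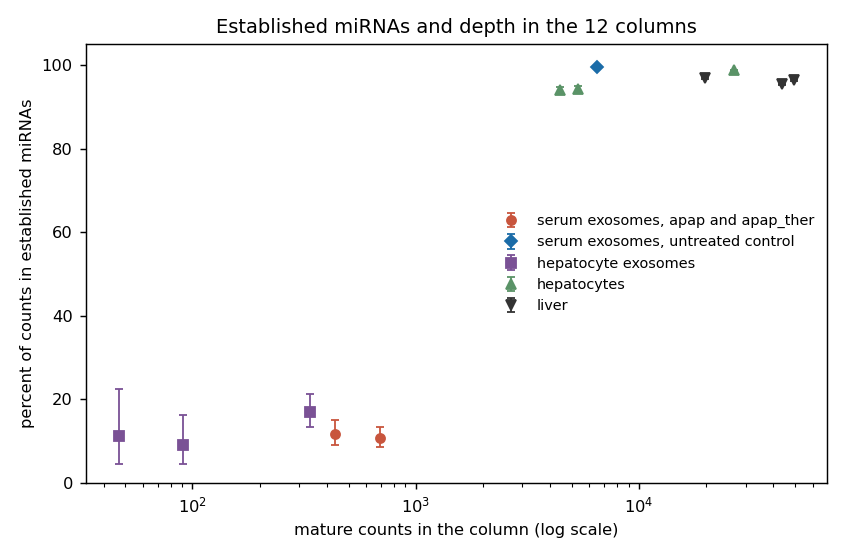
Percent of mature counts in established miRNAs against the mature counts of each of the 12 columns (log scale), with 95% Wilson intervals; symbols mark the material and, for serum exosomes, treatment. The 5 columns under 1000 counts lie between 9.10% and 17.0%, and the 7 others between 94.0% and 99.6%.

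The shallow acetaminophen columns set what could be seen. A mature entry with 0 counts in the acetaminophen sum may hold up to 0.266% of it, against 0.0460% for an entry with 0 counts in control. An entry needed 0.887% of the acetaminophen sum to reach 10 counts there, against 0.153% in control. For hairpins at 0 in the sum, 242 control counts were needed for a call; 41 of the control-measured hairpins had them and 35 of these were lower, while 151 had fewer.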

How the data were processed

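The authors deposited expected counts (estimated counts of reads per miRNA, unscaled, per the file headers) in 1 mature and 1 hairpin table of 12 columns. Fractional values show that the authors divided reads matching several entries. Aligner, annotation and build: not given in the sources used here. Libraries came from an Ion Total RNA-Seq kit, per the labels. Columns carry no instrument and combine both. The members, lists and classes were chosen with earlier results of these data known.

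The columns titled apap and apap_ther were summed and set against control as shares of the column total. Intervals are exact conditional (Clopper-Pearson) 95% intervals on counts rounded to whole numbers, and Wilson intervals for shares (scipy 1.17.1). A floor of 3 counts replaced counts that round to 0. Intervals and floors cover counting error only, since reads carried no molecular identifiers. The rule for named entries took every called mature entry, miR-122-5p, and the leading hairpins by share and by interval. Since no genome was used here, classes rest on names, so the other class also holds entries that resemble repeats, such as miR-3473b. RefSeq sequences matched 1623 of 1915 mature names (84.8%). EdgeR 4.0.16 and DESeq2 1.42.0 on the rounded counts, with both acetaminophen columns as samples of 1 group, were alternatives, as were other scalings, minimums and fold limits. The interval was tested on simulated data.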

Additional observations from a re-analysis of the deposited data

Results flagged for a closer look

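MiR-30c-5p, miR-30b-5p and miR-380-5p were lower in both acetaminophen serum exosome columns and higher in both treated hepatocyte columns, each against its own control. The difference between materials was not tested, and these log2 ratios of shares rest on single columns. For miR-30c-5p they were at most -7.03 in apap and -6.36 in apap_ther, and 3.23 in hepatocytes after acetaminophen and 4.26 after acetaminophen and G-CSF. For miR-30b-5p they were at most -4.93 in apap and -4.27 in apap_ther, and 2.11 and 2.65 in the hepatocyte columns in the same order. For miR-380-5p they were at most -1.67 in apap and -1.01 in apap_ther, and 3.91 and 3.89 in the hepatocyte columns.

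The red-cell miRNA miR-451a was lower in both serum columns, at most -2.52 in apap and -1.85 in apap_ther, and higher in both treated livers. The log2 ratio was 5.07 in liver after acetaminophen and 2.57 after acetaminophen and G-CSF. This difference was not tested either.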

How the results depend on the processing

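All class shares kept their direction and stayed past the limit under every alternative run on them, including classes from 20-base matches and other hairpins without mir-3107 (both added after seeing the data). Among 87 named entries, 782 of 826 recomputed values kept direction and call, 38 lost the call, 6 gained it and none reversed. The 6 gained calls were miR-122-5p and mir-122, both lower with totals without miR-30b and miR-30c, with TMM and with DESeq2 size factors. With 1 acetaminophen column alone, mature calls were 11 to 15 higher and 8 lower (8 to 8), hairpin calls 13 to 74 higher (established 1 to 13, repeat-like 4 to 17, other 8 to 44) and 10 to 33 lower, with apap_ther, the shallower, giving the lowest counts of higher entries; let-7 calls were 0 to 0, miR-15/16 calls 2 to 2, calls of the miR-706, miR-3470, miR-3472 and miR-5620 list 3 to 5, and called mature entries with a hairpin in the same direction 17 to 21 against 35 in the sum.

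Other scalings lowered the median log2 ratio by 1.72 to 2.03 in mature and 1.25 to 1.39 in hairpin entries. Totals without miR-30b and miR-30c, TMM and DESeq2 size factors each gave 29 lower mature entries in place of 16 and 8 lower let-7 members in place of 2. Lower hairpins numbered 66, 66 and 65 in place of 37. All 16 and 37 remained lower. Calls that were higher made up 56.8% of mature and 67.8% of hairpin calls in shares, against 42% and 52.2% under TMM. The mature factors rest on 5 entries above 0 on both sides.

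The mean of both shares gave 20 established hairpins higher in place of 11. A minimum of 5 counts gave 33 mature entries higher, 7 miR-466 type entries, and as higher hairpins 19 established, 23 repeat-like and 100 other entries. A minimum of 20 gave 13 mature and 51 hairpin entries, with 6 established hairpins. A minimum of 1 gave 119 and 599, the hairpins being 94 established, 53 repeat-like and 452 other, with 24 miR-466 type entries and 131 of 132 called mature entries in the direction of their hairpin. A 4-fold limit left 9 mature entries lower, with 0 let-7 and 2 miR-15/16 members. Lower mature calls were 8 in edgeR, 8 in DESeq2 and 6 in edgeR with TMM (added after seeing the data). Lower hairpin calls were 10 in DESeq2 and 173 in edgeR with TMM, which called 48 higher. The cause was not tested. EdgeR and DESeq2 calls used a limit on the false discovery rate (a corrected p-value), with no fold limit and only 1 control column. Their numbers of calls are therefore not like those of the main rule. Classes from genome matches were not run, as no genome was used here. No paired analysis was possible because the columns carry no replicate or instrument.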
